A study of Homo sapiens with 6 samples.

Results

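The solute carrier genes expressed in Kasumi-1 cells are described here. They were taken as the protein-coding genes of GENCODE release 29 whose symbol starts with SLC and a digit and whose mean FPKM over all 6 libraries was at least 1. FPKM scales the fragments counted on a gene to its exon length and to the depth of its library, so that levels of different genes can be compared per length. Of 325 protein-coding genes with such a symbol in the deposited table of 32364 Ensembl genes, 169 met this rule. The members were chosen by their mean FPKM, so that their levels are a description, and the difference between I13 and control was not used in the choice. Kasumi-1 is an established human line of acute myeloid leukemia with the RUNX1-RUNX1T1 fusion gene. The 6 mRNA libraries came from 3 samples of control cells, which received the solvent dimethyl sulfoxide, and from 3 samples incubated for 48 h with 0.5 µM I13. I13 is an inhibitor of histone deacetylases, the enzymes that remove acetyl groups from histones. The labels number the samples 1 to 3 in each group and do not say whether they were separate cultures. The study describes its sequencing results as coming from independent experiments without tying these to single libraries. The p-values here therefore set the group difference against the spread between these samples, whether or not they were separate cultures.

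Solute carriers are membrane proteins that move small molecules and ions across the plasma membrane and the membranes of organelles, by facilitated diffusion or coupled to the gradient of another solute. Growing leukemia cells take up glucose, amino acids, nucleosides, vitamins and metals through them, release lactate and protons, and exchange metabolites between cytosol and mitochondria. Several nucleoside and antifolate drugs enter blood cells through members of these families. Symbols with the SLC root are given by family, and a family often shares a class of substrate. A few proteins carry an SLC symbol without being transporters.

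The recovered depth ranged from 16566741 to 17221345 mapped fragments for control and from 15281053 to 16682551 for I13. The members had between 41 and 12740 fragments in a library, with a median of 600, and held between 0.864% and 0.902% of the summed FPKM. The cells carried the markers of a myeloblast line, with MPO between 10241 and 12450 FPKM, ELANE between 2194 and 2638, KIT between 196 and 236, and CD34 between 38.3 and 45.9. The fibroblast markers COL1A1 and COL1A2 were at 0 in every library, while the epithelial marker EPCAM was between 20.8 and 26.5 FPKM and KRT8 did not exceed 0.0190. Control replicate 3 and I13 replicate 2 deviated from their group means in the same way, with a correlation of 0.51 over 4133 genes and no cause named in the labels. Differences are therefore also given within this pair and within the other 4 libraries where a result could rest on them.

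To show the start regions of members that the results turn on, the 250 bases before the RefSeq start are printed for 4 of them, SLC10A4 and SLC1A4, which were higher with I13, and SLC18A2 and SLC45A3, which were lower. RefSeq (GRCh38.p14) gave 204 such windows for 136 of the 169 members and none for SLC28A3 and SLC52A3. Capitals mark the GC box, the letters GGGCGG on either strand with overlapping matches counted, of which the windows hold 4, 4, 3 and 2 in the order printed. The windows lie at chr4:48483093-48483342 (SLC10A4, plus strand), chr2:64989149-64989398 (SLC1A4, plus strand, 1 of 2 starts), chr10:117240864-117241113 (SLC18A2, plus strand) and chr1:205680510-205680759 (SLC45A3, minus strand). The window of the other SLC1A4 start, chr2:64988229-64988478, holds 0 GC boxes and is not printed.
SLC10A4: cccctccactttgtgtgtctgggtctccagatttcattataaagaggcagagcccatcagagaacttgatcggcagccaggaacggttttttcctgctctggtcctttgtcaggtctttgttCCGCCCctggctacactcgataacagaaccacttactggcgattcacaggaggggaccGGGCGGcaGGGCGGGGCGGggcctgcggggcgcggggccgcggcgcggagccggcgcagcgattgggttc
SLC1A4: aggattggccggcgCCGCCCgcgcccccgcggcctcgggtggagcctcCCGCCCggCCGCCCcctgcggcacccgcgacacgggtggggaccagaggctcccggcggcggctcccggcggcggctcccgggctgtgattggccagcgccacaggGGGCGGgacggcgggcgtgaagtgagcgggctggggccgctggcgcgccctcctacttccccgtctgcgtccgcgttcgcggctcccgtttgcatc
SLC18A2: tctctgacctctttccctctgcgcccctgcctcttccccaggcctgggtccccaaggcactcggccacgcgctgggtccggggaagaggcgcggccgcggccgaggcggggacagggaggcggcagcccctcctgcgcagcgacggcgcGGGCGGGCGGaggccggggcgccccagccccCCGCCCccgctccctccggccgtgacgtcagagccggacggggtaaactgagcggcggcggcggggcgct
SLC45A3: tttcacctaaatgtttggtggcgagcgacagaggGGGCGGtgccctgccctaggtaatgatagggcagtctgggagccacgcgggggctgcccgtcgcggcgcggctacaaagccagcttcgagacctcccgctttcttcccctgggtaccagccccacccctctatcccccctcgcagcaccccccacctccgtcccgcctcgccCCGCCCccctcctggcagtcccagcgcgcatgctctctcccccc

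The GC box, a sequence that Sp factors bind, was in 67.2% of the 204 member windows, in 42.6% of all 35116 windows of the RefSeq table and in 53.7% of the 22199 windows of protein-coding genes. The E-box CACGTG, which MYC and related factors bind, was in 13.7% of the member windows, 6.34% of all windows and 7.37% of the protein-coding ones. The core TGTGGT of the RUNX motif was in 6.86%, 11.0% and 9.36%, and in none of the 4 windows printed. The shares for the letters CCAAT were 33.8%, 32.0% and 32.7%, and those for TGATGNAA, a core of the amino acid response element, were 1.96%, 3.14% and 2.35%. All were searched on both strands and are matches of letters, not sites of binding. The members were chosen for a mean FPKM of at least 1, and the windows they are set beside were not. A gene with several starts also counts more than once. The differences in share are therefore not read as a trait of solute carriers.

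The expressed members covered 42 families and were placed in 13 classes by what they carry. Levels were unequal, with a median of the mean FPKM of 7.24, and the 10 most abundant members held 41.7% of the summed member FPKM. Of the 169 members, 62 had a mean of at least 10 FPKM and 61 a mean under 5. The mitochondrial carriers were the largest class by number and by level, with 35 members and 40.7% of the member FPKM. Amino acid, peptide and amine transporters followed with 21 members and 14.3%, metal and heme transporters with 22 members and 8.19%, and the SLC35 family with 20 members and 7.44%.

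**Figure D1:**
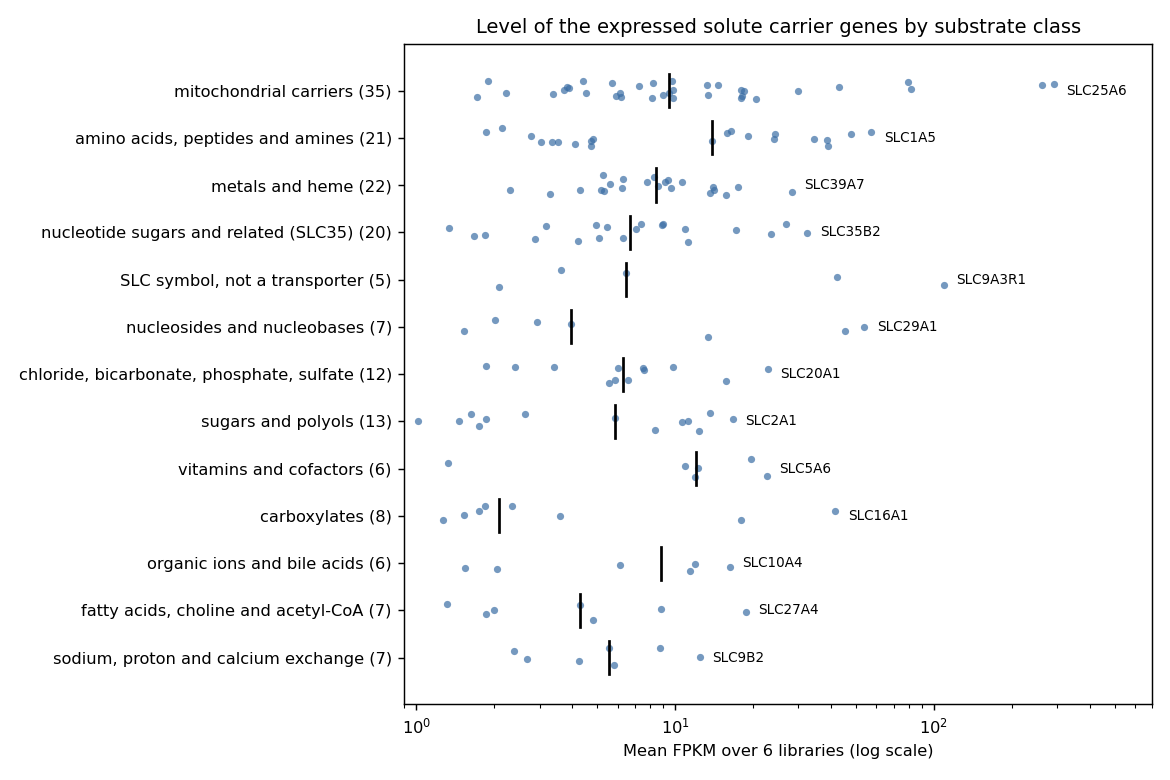
Mean FPKM over all 6 libraries (log axis) of each of the 169 expressed solute carrier genes, 1 point per gene, in rows by substrate class with the number of members in brackets; the black bar is the class median and the most abundant member is named. SLC25A6 with a mean of 291 FPKM is the highest point, and most points lie between 1 and 30 FPKM.

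The most abundant members were the adenine nucleotide carriers SLC25A6 and SLC25A5, which exchange ADP and ATP across the inner mitochondrial membrane. SLC25A6 was at 289.7, 280.3 and 312 FPKM in control replicates 1, 2 and 3 and at 296, 309 and 261 FPKM in I13 replicates 1, 2 and 3. SLC25A5 was at 272, 266 and 269.6 FPKM in control cells and at 258, 267 and 239.8 FPKM with I13. For both genes the values of the groups overlapped, and the log2 fold changes on the log2(FPKM + 0.1) scale were -0.03 (SE 0.0754) and -0.08 (SE 0.0518). SLC25A4, the adenine nucleotide carrier of muscle and heart, was at only 5.94 ± 0.782 FPKM (SD, n = 3) in control cells and 5.46 ± 0.0459 with I13. SLC25A6 and SLC25A5 have 6 and 9 named pseudogenes, with which the deposited counting may have shared fragments.

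Next in level among the mitochondrial carriers were the phosphate carrier SLC25A3 (83.0 ± 1.35 FPKM in control cells and 80.9 ± 2.09 with I13), the citrate carrier SLC25A1 (78.8 ± 4.97 and 80.1 ± 9.45) and SLC25A39, which takes glutathione into mitochondria (41.8 ± 4.24 and 44.0 ± 3.17). Their log2 fold changes were -0.04, 0.02 and 0.08, each smaller in size than its SE. Of the iron and heme related members, SLC25A38, which brings in glycine for heme synthesis, was at 31.0 ± 1.84 FPKM in control cells and 28.6 ± 0.446 with I13, and the iron carrier SLC25A37 at 17.7 ± 0.421 and 18.4 ± 1.36. Across all 35 mitochondrial carriers the log2 fold changes ran from -0.12 to 0.20, with 22 above 0 and 13 below.

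Among the amino acid transporters the highest were SLC1A5, which takes up glutamine and other neutral amino acids, SLC7A5, the light chain of the exchanger of large neutral amino acids, and SLC38A2, a sodium-coupled transporter of small neutral amino acids. SLC1A5 was at 51.1, 53.0 and 65.0 FPKM in control cells and at 55.0, 61.9 and 58.1 with I13. It was highest in control replicate 3 and I13 replicate 2, and its difference was 0.12 within the other 4 libraries and -0.07 within that pair. SLC7A5 was at 47.1 ± 2.24 FPKM and 49.0 ± 2.45 FPKM in the 2 groups, its heavy chain SLC3A2 at 24.04 ± 2.58 and 24.4 ± 1.21, and SLC38A2 at 39.8 ± 2.96 and 38.2 ± 4.25. The cystine importer SLC7A11, which uses the same heavy chain, had a mean of 0.638 FPKM and was not a member.

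The nucleoside class was led by the equilibrative transporter SLC29A1, a route by which cytarabine enters leukemia cells, and by SLC17A9, which fills vesicles with ATP. SLC29A1 was at 47.8, 51.4 and 58.6 FPKM in control cells and at 52.7, 57.2 and 54.9 with I13. SLC17A9 was at 43.9 ± 2.91 FPKM in control cells and 47.1 ± 2.78 with I13. The groups overlapped for both, and the 95% intervals of the log2 fold changes ran from -0.12 to 0.25 and from -0.06 to 0.26.

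The sugar class was led by SLC2A1 and SLC2A3, the facilitative glucose transporters GLUT1 and GLUT3. SLC2A1 was at 17.0 ± 1.05 FPKM in control cells and 16.5 ± 0.836 with I13. SLC2A3 was at 17.6, 13.5 and 13.03 FPKM in control cells and at 12.9, 12.1 and 12.8 with I13. All I13 values of SLC2A3 were below all control values, and control replicate 1 stood above the others. The log2 fold change of -0.21 (SE 0.115) had an unadjusted p of 0.111 by limma and 0.0303 by voom. The monocarboxylate transporter SLC16A1, which carries lactate with a proton, was at 40.7 ± 1.93 FPKM in control cells and 42.4 ± 4.01 with I13 and made up 57.9% of the carboxylate class. SLC16A3, a lactate exporter of glycolytic cells, was far lower and is described with the members that had an unadjusted p under 0.05.

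The metal and heme class held many members, with mean FPKM from 2.30 to 28.3 and a median of 8.46. The zinc transporter SLC39A7, which releases zinc from the endoplasmic reticulum, was the highest at 25.2, 26.1 and 29 FPKM in control cells and 29.8, 28.5 and 30.9 with I13. The groups overlapped only in that control replicate 3 lay above I13 replicate 2, the 2 libraries that deviated together. The log2 fold change of SLC39A7 was 0.15 with an unadjusted p of 0.0535 by limma. It was 0.24 within the other 4 libraries and -0.02 within the pair. The zinc importer SLC39A10 was at 5.17 ± 0.355 and 5.33 ± 0.454 FPKM, the zinc exporter SLC30A1 at 8.69 ± 0.557 and 7.90 ± 0.895, the iron importer SLC11A2 at 6.36 ± 0.104 and 6.22 ± 0.329, and the iron exporter SLC40A1 at 3.30 ± 0.370 and 3.29 ± 0.694. None of the 22 metal and heme members had an unadjusted p under 0.05.

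In the ion classes, the phosphate importer SLC20A1 was at 22.7 ± 1.14 FPKM in control cells and 22.9 ± 0.227 with I13, the bicarbonate importer SLC4A7 at 5.69 ± 0.530 and 5.98 ± 0.630, and the cotransporter of sodium, potassium and chloride SLC12A2 at 2.40 ± 0.218 and 2.42 ± 0.257. SLC9B2, the most abundant member of the class that exchanges sodium, protons and calcium, was at 12.3 ± 0.269 and 12.6 ± 0.634 FPKM.

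The SLC35 family, most of whose studied members bring nucleotide sugars or related donors into the Golgi apparatus and endoplasmic reticulum, was led by SLC35B2, a carrier of the sulfate donor for glycans. SLC35B2 was at 31.3 ± 4.13 FPKM in control cells and 33.6 ± 2.41 with I13, highest in control replicate 3 and I13 replicate 2, and SLC35B1, which brings ATP into the endoplasmic reticulum, was at 11.0 ± 0.124 and 11.4 ± 0.419. Among vitamin transporters the biotin and pantothenate carrier SLC5A6 was at 23.1 ± 2.25 and 22.1 ± 2.07 FPKM, and the folate carrier SLC19A1, which also takes up methotrexate, at 11.8 ± 0.943 and 12.01 ± 1.33. SLC27A4, a fatty acid transport protein, was at 19.0 ± 1.32 and 18.6 ± 1.34 FPKM. The 5 members that are not transporters were led by the scaffold protein SLC9A3R1, at 110.2 ± 9.81 and 109 ± 5.50 FPKM, and included the DNA-binding protein SLC2A4RG at 41.7 ± 4.40 and 42.6 ± 3.27.

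The comparison of 3 I13 with 3 control libraries asked whether the transcript levels of these genes differed after incubation with the inhibitor. None of the 169 members passed the adjusted p of 0.05 in the limma test over all 18726 genes whose mean FPKM reached 0.1. The smallest adjusted p of a member was 0.787, and over all genes tested, of which 0 (0%) passed, it was 0.275. At an unadjusted p under 0.05 there were 8 members (4.73%), against 5.14% of all genes tested and 5.32% of the 11517 genes whose mean FPKM reached 1. Of these 8 members, SLC10A4 and SLC1A4 were higher with I13, which is 1.18% of the members against 2.55% of all genes tested and 2.6% of those from 1 FPKM. SLC28A3, SLC52A3, SLC16A3, SLC18A2, SLC45A3 and SLC35E2B were lower, which is 3.55% of the members against 2.59% and 2.72%. By limma, both the total and the shares by direction were near those of the background, so that these counts do not set the members apart. In bulk libraries, fewer cells that carry a transcript and less of it per cell cannot be told apart. By voom on recovered fragments, 0 members and 5 of 13808 genes (0.0362%) passed the adjusted p. At the unadjusted p there were 11 members (6.51%) against 5.35% of the genes. Of these members, 2 were higher (1.18% against 2.56%) and 9 lower (5.33% against 2.8%). When voom also had a term for the library pair, 1 member (0.592%) passed the adjusted p against 0.63% of the genes. The unadjusted p was passed by 21 members (12.4%) against 10.3%, with 6 higher (3.55% against 5%) and 15 lower (8.88% against 5.27%). With voom, with or without this term, the share of lower members was above that of the genes and the share of higher members below it. This difference in shares was not tested. The count of higher members by limma rested on single libraries, at 8 without control replicate 3, 6 without I13 replicate 2, 1 if control replicate 2 or I13 replicate 1 was left out, and 0 if control replicate 1 or I13 replicate 3 was. No share of all genes is given for these runs, so that the shifts are not read as particular to the members.

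The differences were small for most members. The median log2 fold change was 0.018 over the members and 0.0058 over all genes tested, and 97 members (57.4%) were above 0, against 51.8%, or 52.1% of genes from 1 FPKM. With 1 library left out, the median of the members ran from -0.0027 (without control replicate 1) to 0.017 (without control replicate 2). The most negative log2 fold change was -0.65 and the most positive 0.32. The 95% interval of the log2 fold change lay within 0.58 of 0, the threshold that the study's methods set, for 159 members (94.1%), against 54.1% of all genes tested and 85.7% of those from 1 FPKM. The 10 members whose interval reached past 0.58 were SLC18A2, SLC1A4, SLC29A4, SLC28A3, SLC16A3, SLC50A1, SLC52A3, SLC27A3, SLC16A4 and SLC2A9, which had control means between 1.10 and 5.28 FPKM. Only SLC28A3 and SLC52A3 (1.18%) had both an unadjusted p under 0.05 and a log2 fold change of 0.58 or more in size, against 2.38% of all genes tested and 0.955% of those from 1 FPKM.

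**Figure D2:**
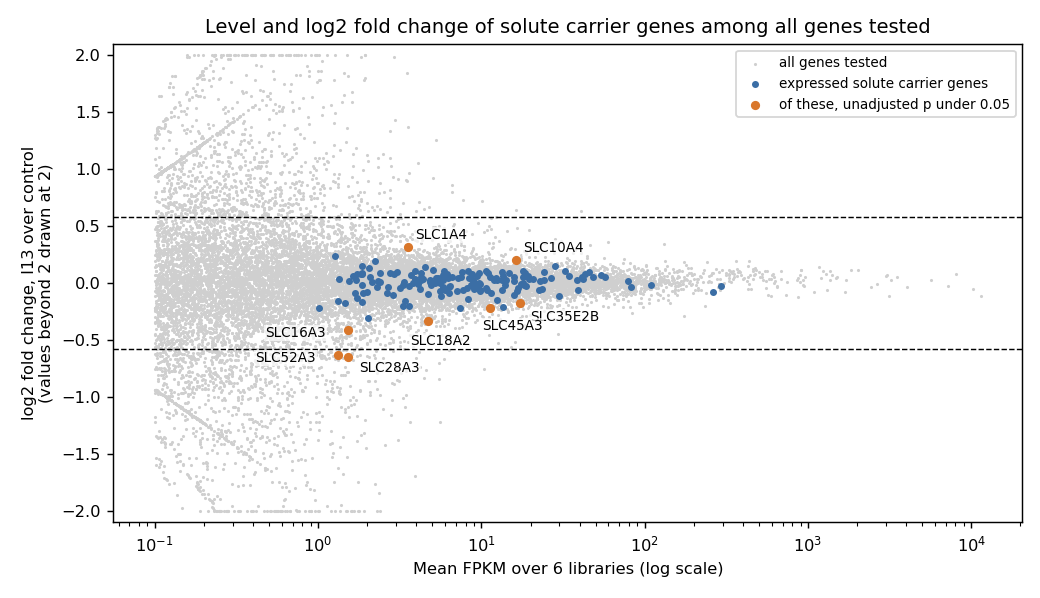
Log2 fold change of I13 over control against the mean FPKM (log axis) of all 18726 genes tested in grey, with the 169 expressed solute carrier genes in blue and the 8 of them with an unadjusted p under 0.05 in orange; dashed lines stand at 0.58 and -0.58, and values beyond 2 are drawn at 2. The members lie in the middle of the grey cloud, and SLC28A3 and SLC52A3 are the only members past a dashed line.

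**Figure D3:**
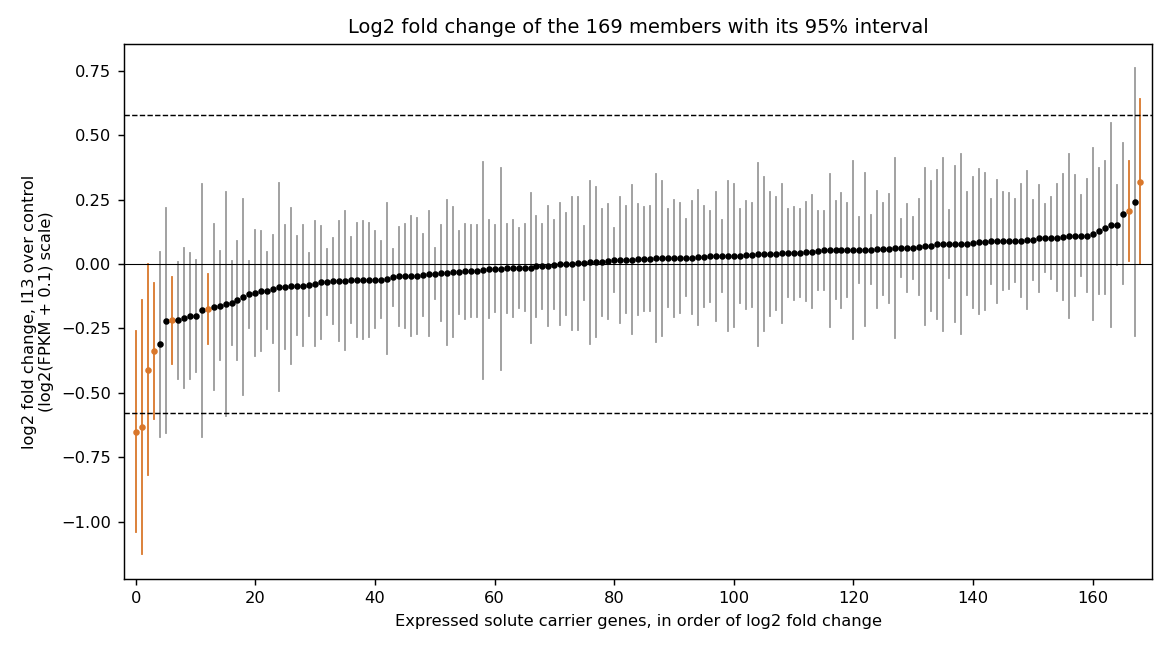
Log2 fold change of I13 over control with its 95% interval (vertical lines) for each of the 169 members, ordered by log2 fold change; the 8 members with an unadjusted p under 0.05 are orange and dashed lines stand at 0.58 and -0.58. For 159 members the whole interval lies between the dashed lines.

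Precision rose with level. The 62 members with a mean of at least 10 FPKM had a median SE of 0.0752 and no absolute log2 fold change above 0.22, and 3 of them had an unadjusted p under 0.05. The 61 members under 5 FPKM had a median SE of 0.124 and 5 with an unadjusted p under 0.05. Of all genes tested 5.14% passed this p, and of those from 1 FPKM 5.32%. Shares of all genes at the same levels are not given, so that these counts are not read as particular to the members. All I13 values were above all control values for 9 members (5.33%), against 4.88% of all genes tested and 4.68% of those from 1 FPKM, and below for 11 members (6.51%), against 4.64% and 4.97%.

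The most negative log2 fold change was that of SLC28A3 (ENSG00000197506, chr9:84275457-84340683, minus strand), which concentrates nucleosides in the cell against their gradient with sodium. It was at 2.22, 1.92 and 1.55 FPKM in control replicates 1, 2 and 3 and at 1.05, 1.17 and 1.27 FPKM in I13 replicates 1, 2 and 3. The groups did not overlap. The log2 fold change was -0.65 (SE 0.166, unadjusted p = 0.00554, adjusted p = 0.787 by limma with Benjamini-Hochberg adjustment), with -0.79 within the 4 libraries and -0.38 within the pair, from 85 to 194 fragments per library. Of the 8 members, only SLC28A3 kept an unadjusted p by limma under 0.05 whichever single library was left out (highest p 0.0228). It was also the only member past the adjusted p in any fit, at 0.0280 by voom with the pair term. The pair was picked from these same data, and 0.63% of the genes passed with that term, against 0.0362% without it. This adjusted p is therefore not read as support for the difference. SLC28A3 overlaps AL356134.1 on the other strand.

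SLC52A3 (ENSG00000101276, chr20:760080-776015, minus strand), a riboflavin transporter, was at 1.55, 1.75 and 1.57 FPKM in control cells and at 1.03, 1.33 and 0.745 with I13. All I13 values were lower, I13 replicate 3 most so, and the log2 fold change was -0.63 (SE 0.209, unadjusted p = 0.0189) from 41 to 108 fragments. Within the 4 libraries this was -0.84, and within the pair -0.23. The other riboflavin transporter expressed, SLC52A2, was at 19.5 ± 1.99 FPKM in control cells and 19.9 ± 0.395 with I13, with a log2 fold change of 0.03.

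SLC16A3 (ENSG00000141526, chr17:82228397-82261129, plus strand) was at 2.17, 1.54 and 1.58 FPKM in control cells and at 1.24, 1.46 and 1.17 with I13. The groups did not overlap, but control replicate 1 lay apart from the other control libraries, and the log2 fold change of -0.41 (SE 0.173, unadjusted p = 0.0492) became -0.26 with a p of 0.166 without it. Within the pair it was -0.10. CSNK1D lies on the other strand of this locus, and the strand setting of the deposited counts is not given in the sources used here.

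SLC18A2 (ENSG00000165646, chr10:117241073-117279430, plus strand), the vesicular monoamine transporter that loads histamine and serotonin into granules, was at 5.69, 5.04 and 5.12 FPKM in control cells and at 3.87, 3.84 and 4.84 with I13. I13 replicates 1 and 2 were clearly lower and I13 replicate 3 lay just under the control values. The log2 fold change was -0.34 (SE 0.112, unadjusted p = 0.0193), -0.30 within the 4 libraries and -0.41 within the pair. It overlaps PDZD8 on the other strand.

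SLC45A3 (ENSG00000158715, chr1:205657851-205680459, minus strand), a sugar transporter of the SLC45 family, was at 11.6, 12.1 and 12.7 FPKM in control cells and at 10.6, 11.0 and 9.63 with I13. SLC35E2B (ENSG00000189339, chr1:1659529-1692728, minus strand), whose substrate is not known, was at 17.8, 18.5 and 18.2 FPKM in control cells and at 15.1, 16.8 and 16.4 with I13. Neither gene's groups overlapped, and the log2 fold changes were small, -0.22 (SE 0.0713, unadjusted p = 0.0178) and -0.17 (SE 0.0576, unadjusted p = 0.0188). Within the 4 libraries and within the pair they were -0.23 and -0.20 for SLC45A3 and -0.20 and -0.11 for SLC35E2B. SLC35E2B shares near-identical sequence with SLC35E2A (2.99 ± 0.144 FPKM in control cells and 2.78 ± 0.217 with I13), so that the split of fragments between them is uncertain.

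SLC10A4 (ENSG00000145248, chr4:48483343-48489196, plus strand), a vesicular member of the bile acid transporter family, was at 15.5, 16.5 and 13.5 FPKM in control cells and at 17.4, 18.0 and 16.9 with I13. All I13 values were above all control values, by 0.21 on the log2 scale (SE 0.0818, unadjusted p = 0.0398), and by 0.10 within the 4 libraries and 0.42 within the pair. SLC1A4 (ENSG00000115902, chr2:64988477-65023865, plus strand), a transporter of alanine, serine and cysteine, was at 2.59, 3.37 and 3.48 FPKM in control cells and at 3.59, 4.32 and 3.89 with I13. The highest control and the lowest I13 value were close, and the log2 fold change was 0.32 (SE 0.135, unadjusted p = 0.0495), with 0.33 within the 4 libraries and 0.30 within the pair. Its relative SLC1A5 differed by 0.06 (SE 0.0964).

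**Figure D4:**
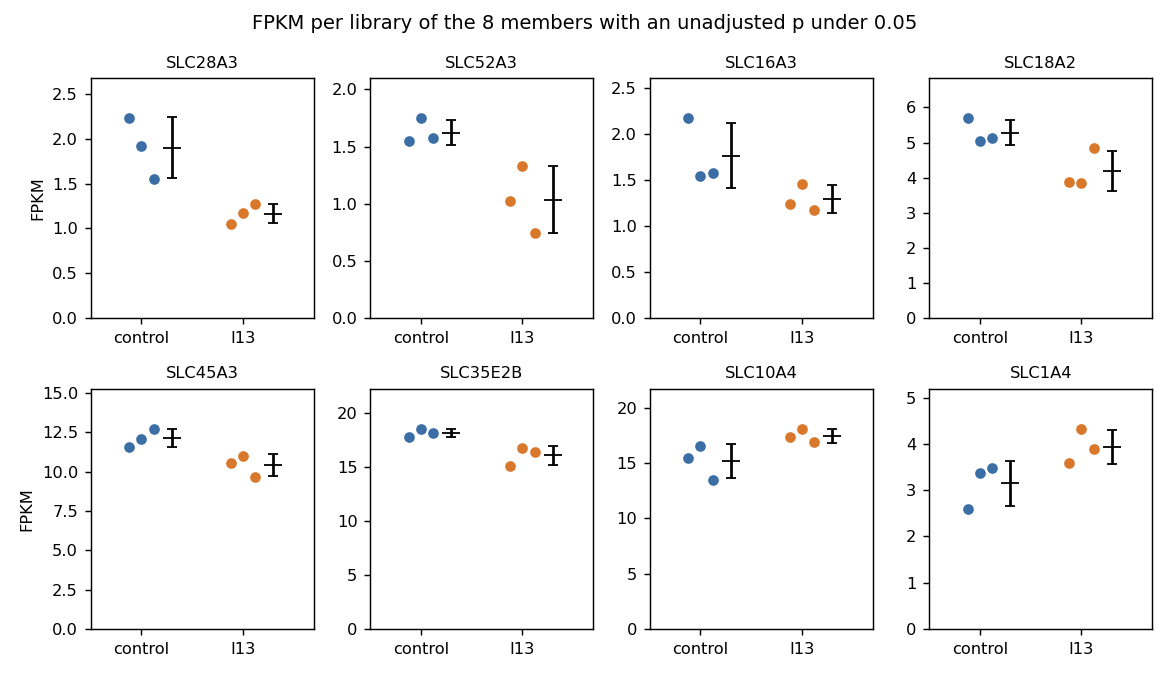
FPKM per library (points, replicates 1 to 3 from left to right) of the 8 members with an unadjusted p under 0.05, in 3 control libraries (blue) and 3 I13 libraries (orange), with the group mean and SD as black bars; every axis starts at 0. The groups do not overlap in any panel, and SLC28A3 and SLC52A3 show the largest distance for their level.

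The groups of all 8 members did not overlap, so that the same direction within the 4 libraries and within the pair was fixed in advance. It adds nothing on the shared deviation of the pair. Without 1 library, 7 of the 8 had a p above 0.05 in at least 1 case, SLC28A3 being the exception. The highest p so reached was 0.0595 for SLC52A3, 0.0608 for SLC45A3, 0.0683 for SLC18A2, 0.0690 for SLC35E2B, 0.104 for SLC10A4, 0.145 for SLC1A4 and 0.166 for SLC16A3.

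A further 12 members had groups that did not overlap with an unadjusted p above 0.05 by limma. Of the lower ones, SLC29A4, a carrier of monoamines and adenosine, was at 2.40, 2.13 and 2.18 FPKM in control cells and at 2.10, 1.85 and 1.45 with I13, a log2 fold change of -0.31 (SE 0.152, unadjusted p = 0.0795 by limma and 0.0267 by voom). SLC36A1, which moves amino acids out of lysosomes, was at 3.57 ± 0.103 and 3.10 ± 0.242 FPKM. Of the higher ones, the mitochondrial carrier SLC25A16 was at 2.05, 2.06 and 2.06 FPKM in control cells and at 2.52, 2.07 and 2.55 with I13, so that I13 replicate 2 stayed at the control level. The carnitine transporter SLC22A5 was at 1.96 ± 0.00403 and 2.16 ± 0.135 FPKM, and the peroxisomal carrier SLC25A17 at 5.69 ± 0.138 and 6.15 ± 0.233. The log2 fold changes of these last 4 members ran from -0.20 to 0.20. SLC2A3 has been given above, and SLC25A38, SLC43A1, SLC39A14 and SLC38A7 differed by -0.12, 0.10, 0.06 and 0.09.

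Summed by class, 11 of the 13 classes overlapped between the groups, 1 lay below control in all I13 libraries and 1 above. Among single genes tested, 4.64% lay below and 4.88% above in this way. No such share is given for sums over sets of genes, so that 1 class each way is not read as particular to these classes. The class that lay below was that of sugars and polyols, whose 13 members summed to 93.5, 91.5 and 90.5 FPKM in control cells and to 86.7, 85.7 and 87.7 with I13. These sums did not overlap, and their means were 91.8 ± 1.53 and 86.7 ± 0.973 FPKM. SLC2A3, SLC45A3 and the fructose transporter SLC2A5 (13.1 ± 1.02 and 11.8 ± 0.213 FPKM) made up most of the difference. By limma, 1 of the 13 members, SLC45A3, had an unadjusted p under 0.05. Another, SLC2A9, reached a mean of 1 FPKM only in control cells. The median of their log2 fold changes was only -0.04, beside 0.0058 over all genes tested and -0.05 in the SLC35 family, whose sums overlapped. No test was made of the sums, since the members are not replicates.

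The 7 exchangers of sodium, protons and calcium were the only class whose sums lay above control in all I13 libraries, at 40.8, 41.6 and 41.5 FPKM in control cells and at 41.9, 42.4 and 43.4 with I13. The difference was small, from 41.3 ± 0.424 to 42.6 ± 0.733 FPKM, 6 of the 7 members were above 0 in log2 fold change, and none had an unadjusted p under 0.05. The mitochondrial carriers summed to 1055 ± 21.5 FPKM in control cells and 1039 ± 46.1 with I13, and the amino acid transporters to 363 ± 13.4 and 369.8 ± 5.31. The carboxylate transporters summed to 70.4 ± 2.31 and 73.1 ± 4.17 FPKM, the nucleoside transporters to 121 ± 9.49 and 126 ± 5.91, and the metal and heme transporters to 209 ± 3.35 and 212 ± 6.29. The sums follow their most abundant members, and in the nucleoside class SLC28A3, at 1.90 FPKM in control cells, adds little beside SLC29A1.

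**Figure D5:**
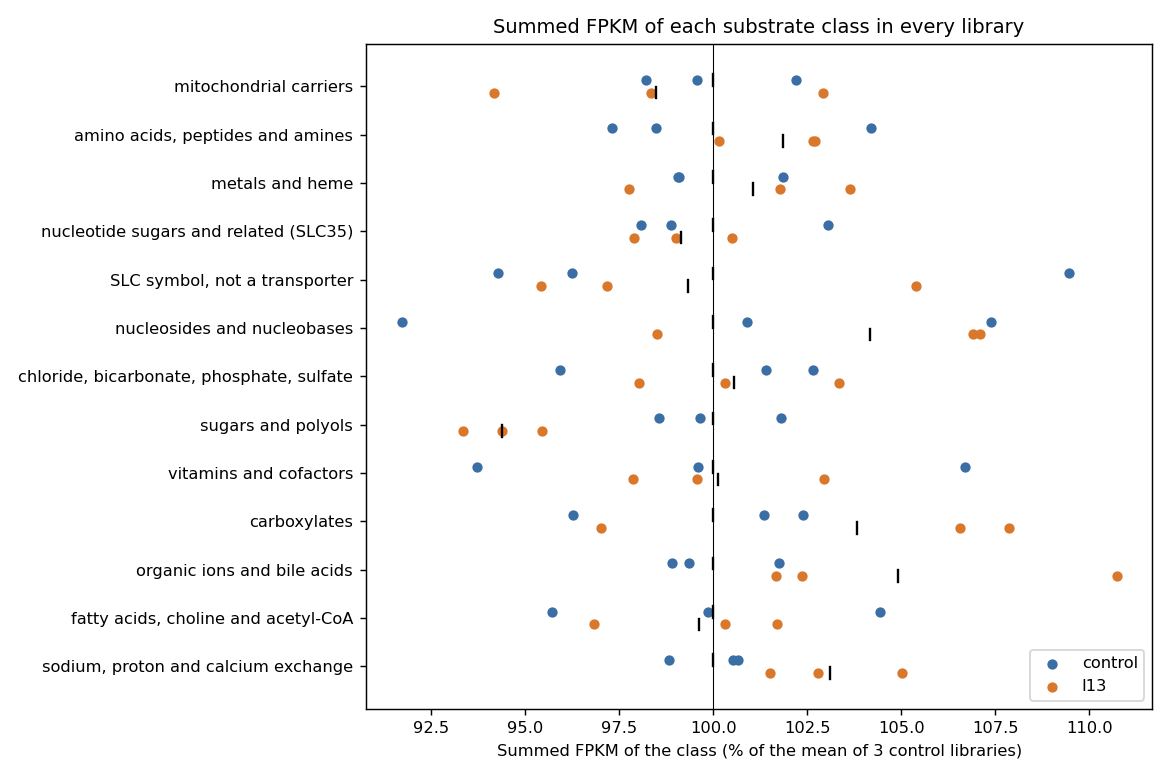
Summed FPKM of each substrate class in each library, as a percent of the mean of the 3 control libraries (vertical line at 100), with control libraries in blue, I13 libraries in orange and the group means as short black bars. The I13 points of sugars and polyols all lie left of the control points and those of sodium, proton and calcium exchange all lie right of them, while the points overlap in the other 11 classes.

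Besides the solute carriers, 43 transport partners and transporters without an SLC symbol were listed, of which 42 had a mean FPKM of at least 0.1. None passed the adjusted p. At an unadjusted p under 0.05 by limma, 2 of the 42 were higher, against 2.55% of all genes tested, and 0 were lower, against 2.59%. In either direction the share of all genes tested was 5.14%. With so few genes, these counts do not set the partners apart. The median log2 fold change was 0.04, and 27 of the 42 were above 0, against 51.8% of all genes tested. The count at the unadjusted p, in either direction, was 5 if control replicate 3 or I13 replicate 2 was left out, and 1 if control replicate 1, control replicate 2 or I13 replicate 3 was. No share of all genes is given for these runs, so that the shifts are not read as particular to the partners. The 2 genes were MPC1 and ATP1B3. MPC1, a subunit of the mitochondrial pyruvate carrier, was at 23.0, 21.03 and 23.3 FPKM in control cells and at 27.1, 25.0 and 26.7 with I13. All I13 values of MPC1 were higher, by 0.23 on the log2 scale (SE 0.0601, unadjusted p = 0.00700, adjusted p = 0.814 by limma), while its partner MPC2 was at 6.23 ± 0.210 and 5.89 ± 0.171 FPKM (log2 fold change -0.08). ATP1B3, a beta subunit of the sodium pump, was at 53.3 ± 1.83 FPKM in control cells and 58.8 ± 3.07 with I13, a log2 fold change of 0.14 (unadjusted p = 0.0363) that was 0.0087 within the pair. BSG, the chaperone of SLC16A1 and SLC16A3 at the plasma membrane, was at 297 ± 19.3 and 285 ± 15.9 FPKM.

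At the threshold of the choice, the members just inside were SLC2A9, a urate transporter of the GLUT family, SLC16A4, a monocarboxylate transporter relative, and SLC27A3, of the fatty acid transport family, with means of 1.01, 1.27 and 1.32 FPKM. Just outside were SLC26A1, SLC25A35 and SLC2A11 with 0.960, 0.933 and 0.924 FPKM. Of the members, 168 had a mean of at least 1 FPKM in both groups, and SLC2A9 only in control cells (1.10 ± 0.203 FPKM and 0.923 ± 0.0826 with I13). Of the 156 solute carrier genes under the threshold, 39 were at 0 in every library, and 46 had a mean of at least 0.1 FPKM and entered the test. None of these 46 passed an unadjusted p of 0.05 by limma in either direction, against 5.14% of all genes tested. With so few genes at low levels, this count does not set them apart.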

How the data were processed

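The authors deposited 1 table of FPKM values (fragments scaled by exon length and mapped fragments) for 6 mRNA libraries of Kasumi-1 cells. Per the labels, the libraries were made from total RNA with a stranded mRNA kit, and the processing notes name Trimmomatic, HISAT2, Cufflinks, HTSeq and hg38. For versions, annotation and strand setting the sources used here give nothing. Identifiers were named with GENCODE release 29 (32244 of 32364). Fragments recovered with its exon lengths were whole within 0.01 for 25770 of 27002 genes (95.4%), and 151 of the 169 members were among them. A further 1319 genes, the other members included, were recovered by the common step between values.

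The FPKM values were used as deposited. Log2(FPKM + 0.1) of the 18726 genes whose mean FPKM reached 0.1 was fitted with limma 3.58.1 (R 4.3.3, 2 groups, variance trend, no block), two-sided with Benjamini-Hochberg adjustment over all genes. This scale understates the fold change of low genes. The script was tested on simulated data. The alternatives tried were leaving out each library, the replicate number as a block, quantile normalization, median scaling, a filter at a mean FPKM of 1 or none, pseudocounts of 0.01 and 1, no trend, robust variances, a log2 fold change of at least 0.58, a term for the library pair, and voom on recovered fragments (13808 genes, mean from 10 fragments). Voom with the pair term was added after seeing the data.

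The members, classes, partner list and tests were chosen with earlier results of these data known, and the classes were written from general knowledge. Genes named are members with an unadjusted p under 0.05, the 10 most abundant, the first of each class, the 5 largest increases and decreases without overlap, textbook transporters, the 3 on each side of the threshold, and partners with an unadjusted p under 0.05. Others were chosen after their values were seen, and a few genes under this rule are not reported here. Of the members, 28 overlap another gene on the same strand, 65 on the other strand, and 23 have a named pseudogene, so that their fragments may be shared.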

Additional observations from a re-analysis of the deposited data

How the results depend on the processing

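None of the 8 members with an unadjusted p under 0.05 changed direction in any alternative run. Since their groups did not overlap, this was fixed in advance for runs that left out a library or changed the pseudocount. Of the 46 members followed by name, 28 kept their side of the unadjusted p of 0.05 in every alternative run. The count of members past the adjusted p was 0 in every alternative but voom with the pair term, which gave 1 (SLC28A3). Higher at the unadjusted p were 0 members without a trend, 1 with median scaling, 1 with no filter, 1 with a pseudocount of 1, 6 by voom with the pair term and 0 with a log2 fold change of at least 0.58, and between 0 and 8 with a library left out. Lower were 10 with the pair term, 15 by voom with the pair term and 2 with the fold threshold, and between 4 and 6 with a library left out. The median log2 fold change of the members was between -0.0027 and 0.017 with a library left out. For the partners the count was 5 with the pair term, 7 by voom with it, and between 1 and 5 with a library left out. The cause of these shifts was not tested. Among all 13808 genes fitted with voom, adding the pair term raised the share under the unadjusted threshold from 5.35% to 10.3%. The share of lower genes rose from 2.8% to 5.27%. A gain in count with that term was thus not limited to members or partners. For most other runs no share of all genes is given, and their counts alone do not set members or partners apart. SLC16A3 kept its p under 0.05 least often among the 8 members. Replicate numbers did not pair the samples, with correlations of deviations of 0.32, -0.38 and -0.30 for numbers 1, 2 and 3, and with the replicate block 2 members were higher and 5 lower, SLC16A3 having a p of 0.0756. As the median of log2 fold changes in place of the sum, the SLC35 family gave -0.05 and the sugar class -0.04. With 3 libraries a group, members under 5 FPKM had as few as 41 fragments in a library, and differences within their intervals were not detectable at this depth.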
